A study of Mus musculus with 12 samples.

Results

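Growth cone transcripts are described here: the 4 stathmin genes Stmn1, Stmn2, Stmn3 and Stmn4, and the genes of the membrane-bound growth cone proteins Gap43, Basp1 and Marcks. They were chosen by name, by matching Ensembl mouse gene IDs to symbols, and 7 of the 9073 genes in the count table are members. All 7 passed the low-count filter, which kept 8312 genes.

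RNA came from dorsal root ganglion (DRG) sensory neurons of adult RPL22HA+/+;Advillin-Cre+ mice. In these mice the Advillin promoter, active mainly in peripheral sensory neurons, drives Cre, and Cre switches on a ribosomal protein L22 carrying a haemagglutinin (HA) tag, so that anti-HA immunoprecipitation (IP) recovers RNA bound to neuronal ribosomes while the Input is lysate RNA. The neurons were infected with an adeno-associated virus named AAV-shGpr151, for a short hairpin against the orphan receptor gene Gpr151, or with AAV-control, which gives 4 groups: IP shGpr151, IP control, Input shGpr151 and Input control. All groups share the RPL22HA and Cre alleles, and the study design adds for all of them a sciatic nerve injury before culture, whereas the extraction text speaks of ganglia collected fresh; no age, number of animals or pooling is stated.

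Each group had 3 deposited columns of nanopore cDNA read counts. Within a group the columns differed by about as much as counting alone gives, with chi-square per degree of freedom from 0.980 to 1.05 in 12 pairs of columns, against 1.80 to 156 in 54 pairs between groups. The columns of a group were therefore summed and counted as 1 sample, so none of the comparisons below has a replicate check, and no p-value is given. Where columns are said to overlap or not, this describes counting spread within 1 sample and adds no replicate support. The share of all genes with columns that do not overlap was not counted. The summed libraries held 3285258 counts for IP shGpr151, 4245486 for IP control, 6148538 for Input shGpr151 and 6332991 for Input control. Levels are CPM, the counts scaled to a common library total. Log2 ratios use library sizes from the trimmed mean of M values (TMM), and each interval is a 95% interval for counting error only: the reads carry no molecular identifiers, so PCR copies of 1 molecule count more than once. With 1 sample a group, a gene is counted as past the threshold at a log2 ratio of 0.32 in either direction for shGpr151 over control and for the difference of such ratios, and at 2-fold for IP over Input.

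Gpr151, the target of the hairpin, had 96, 65 and 89 counts in the IP columns labelled shGpr151, against 107, 109 and 98 in IP control, a log2 ratio of -0.0019 (-0.25 to 0.24). In Input it had 4, 4 and 5 counts in the columns labelled shGpr151, against 10, 8 and 6 in control, a log2 ratio of -0.86 (-1.96 to 0.17). The target thus did not differ between the IP libraries beyond counting error, and too few Input reads covered it to place it. Directions below are those of the libraries labelled shGpr151.

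Stathmins are tubulin-binding proteins that hold tubulin dimers and promote microtubule shrinkage, and phosphorylation switches this off. Stmn1 is cytosolic, whereas Stmn2 (SCG10), Stmn3 (SCLIP) and Stmn4 (RB3) carry an extra amino-terminal region that is palmitoylated and anchors them to Golgi-derived vesicles and growth cone membranes. Gap43, Basp1 (CAP-23) and Marcks are acylated proteins of the inner plasma membrane that bind phosphoinositides and regulate cortical actin. Gap43 and Marcks are protein kinase C substrates that bind calmodulin. Gap43 and Stmn2 are widely used markers of regenerating sensory axons, while Stmn1 and Marcks are also made by many non-neuronal cells.

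All 15 of the pan-neuronal and sensory neuron markers examined were in the table, from Tubb3 to Scn10a. Their summed level was 16127 CPM in IP shGpr151 and 16414 CPM in IP control, against 1238 CPM in Input shGpr151 and 1090 CPM in Input control. Without Uchl1, the most counted of them, the sums were 8647 CPM in IP shGpr151 and 8318 CPM in IP control. In Input they were then 437 CPM with shGpr151 and 507 CPM in control, so the direction between the viruses depended on Uchl1. On library totals the median tested gene was also higher in IP. Its log2 ratio of IP over Input was 2.29 with shGpr151 and 2.23 in control. RNA of other cells was also present in every library. In IP the summed level of 8 of 10 Schwann cell markers was 1501 CPM with shGpr151 and 1333 CPM in control, and that of 5 of 7 fibroblast markers was 709 CPM with shGpr151 and 546 CPM in control. In Input the Schwann cell sum was 341 CPM with shGpr151 and 390 CPM in control. The fibroblast sum there was 74.7 CPM with shGpr151 and 92.4 CPM in control. Markers not in the table, such as Ptprc, Pecam1 and Pdgfra, have no value here.

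**Figure D1:**
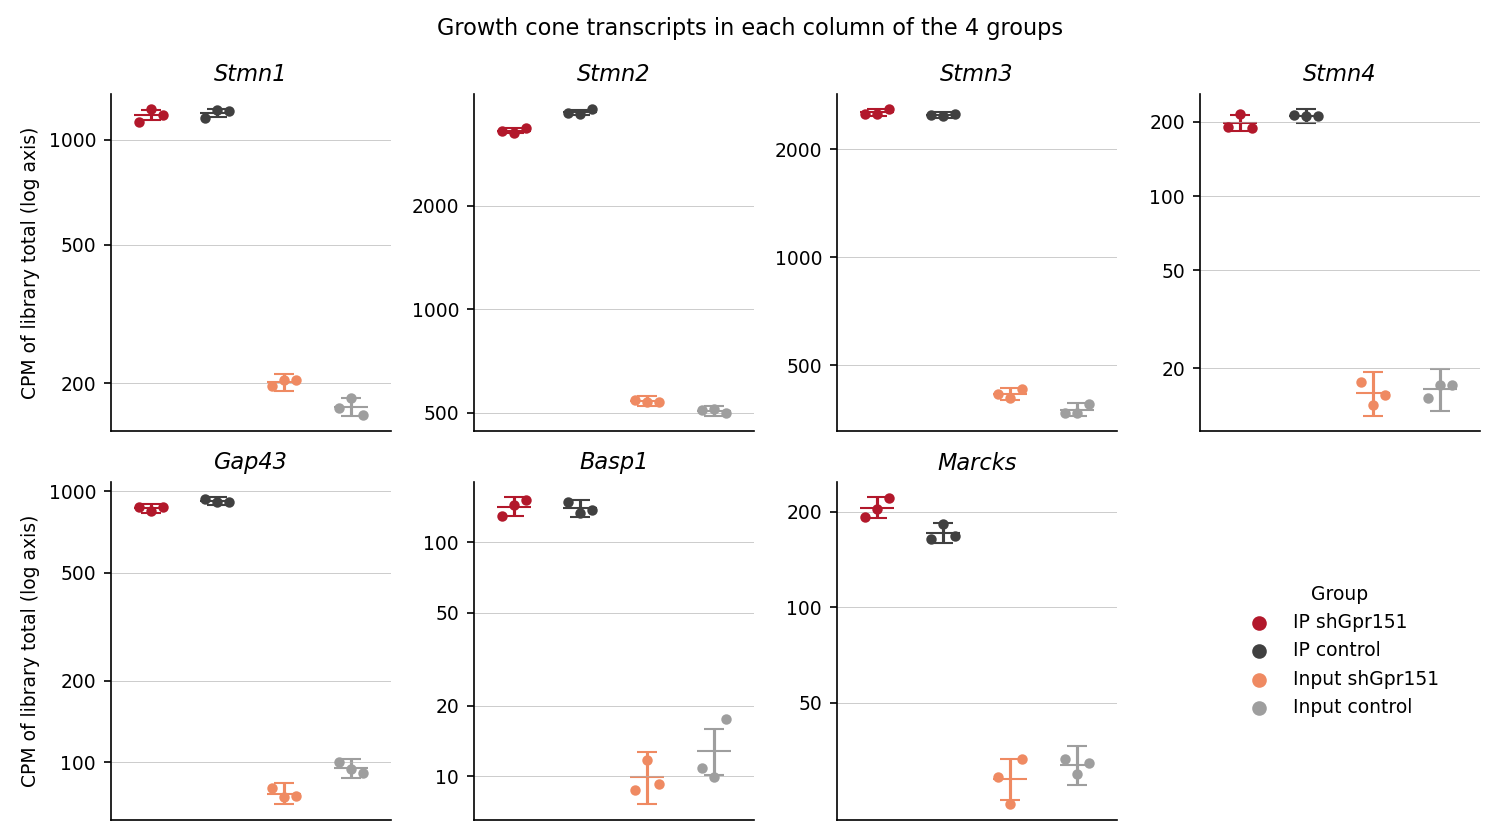
CPM of the library total (log axes) of the 7 growth cone transcripts in each deposited column (points), with the level of the summed library and its 95% counting interval (horizontal mark and bars), for IP shGpr151, IP control, Input shGpr151 and Input control. In each panel all 6 IP columns lie above all 6 Input columns, and the IP columns of Stmn2 labelled shGpr151 lie below those of control.

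The first comparison sets the ribosome-bound RNA of the shGpr151 virus against that of the control virus. With shGpr151, Stmn2 in IP was lower than in IP control, Gap43 slightly lower and Marcks higher, and Stmn3 and Basp1 lay close to the median gene. No member was past the threshold in either direction, where the background over all tested genes was 14.4% higher and 9.88% lower. The median over the 7 members was a log2 ratio of -0.062, beside 0.0034 over all tested genes.

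Stmn2, a stathmin of axon growth, had 3619, 3557 and 3673 counts in the IP shGpr151 columns, against 5245, 5211 and 5409 in IP control. This was 3302 CPM (3240 to 3365) with shGpr151 and 3737 CPM (3679 to 3796) in control. The columns of the groups did not overlap in CPM, and the log2 ratio was -0.22 (-0.26 to -0.19), a 1.17-fold lower level. Of all tested genes 17.8% had a lower ratio, and 10.5% of the 2524 genes with at least 200 counts in both libraries. Stmn2 lay below all 15 of the neuron markers, whose median ratio was 0.042.

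The other stathmins differed less. Stmn1 had 1234, 1343 and 1288 counts in IP shGpr151 and 1629, 1724 and 1707 in IP control, a log2 ratio of -0.062 (-0.12 to -0.00099) with overlapping columns in CPM. Stmn3 had 2745, 2751 and 2834 counts in IP shGpr151 and 3517, 3508 and 3542 in IP control, a ratio of -0.016 (-0.058 to 0.025), with columns from 2507 to 2589 CPM in IP shGpr151 and from 2480 to 2502 CPM in IP control. The sign of this small ratio depended on the scaling, at 0.027 on library totals. Stmn4, the least counted stathmin, had 209, 235 and 207 counts in IP shGpr151 and 302, 299 and 298 in IP control, a ratio of -0.14 (-0.29 to 0.0085). The intervals of Stmn3 and Stmn4 held 0 and that of Stmn1 ended just below it, and a log2 ratio of 0.32 in either direction lies outside each of them.

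Gap43 had 960, 927 and 958 counts in IP shGpr151, against 1323, 1287 and 1295 in IP control. Its level was 866 CPM (834 to 898) with shGpr151 and 920 CPM (891 to 949) in control, with no overlap between the columns, and the log2 ratio was -0.13 (-0.20 to -0.060). Basp1 had 142, 159 and 167 counts in IP shGpr151 and 211, 190 and 194 in IP control, a ratio of -0.019 (-0.20 to 0.16) that was 0.024 on library totals, with overlapping columns. Marcks went the other way, with 211, 223 and 242 counts in the smaller IP shGpr151 library and 232, 258 and 237 in IP control. This was 206 CPM (191 to 222) with shGpr151 and 171 CPM (159 to 184) in control, a log2 ratio of 0.22 (0.069 to 0.38), and the columns did not overlap. Of the 15 neuron markers, 13 had a lower ratio than Marcks. The fibroblast and Schwann cell markers, from cells that can also make Marcks, were higher in the same IP library by the values above. In IP, satellite glia markers summed to 1236 CPM with shGpr151 and 1176 CPM in control. Macrophage markers summed to 490 CPM with shGpr151 and 468 CPM in control, and cycling cell markers to 481 CPM with shGpr151 and 483 CPM in control. Endothelial and mural markers were lower, at 285 CPM with shGpr151 and 312 CPM in control. The part of any of these cells in the Marcks value was not tested.

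**Figure D2:**
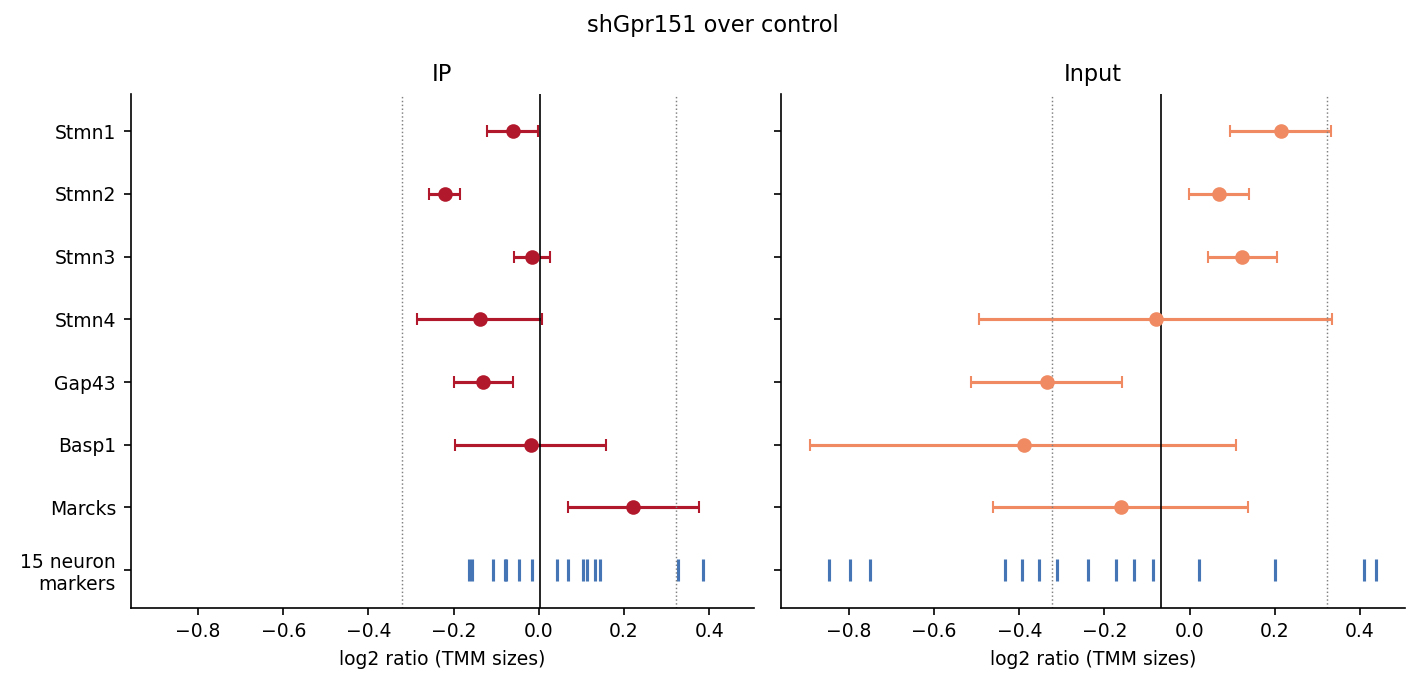
Log2 ratio of shGpr151 over control (x axis, TMM library sizes) in IP (left) and Input (right) for the 7 members (points, with 95% counting intervals) and for 15 neuron markers (ticks). The solid line is the median of all tested genes and the dotted lines mark a log2 ratio of 0.32 in either direction. Stmn2 in IP lies left of every neuron marker, and Gap43 and Basp1 in Input lie left of the lower dotted line.

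Reads within the family gave a measure that does not depend on library scaling. Stmn2 took 45.8% (45.2 to 46.4, exact binomial interval) of the 23695 stathmin counts in IP shGpr151 and 49.0% (48.4 to 49.5) of the 32391 in IP control. Stmn3 took 35.2% (34.5 to 35.8) in IP shGpr151 and 32.6% (32.1 to 33.1) in IP control. Stmn1 took 16.3% (15.8 to 16.8) in IP shGpr151 and 15.6% (15.2 to 16.02) in IP control, and Stmn4 2.75% (2.54 to 2.96) in IP shGpr151 and 2.78% (2.60 to 2.96) in IP control. The ribosome-bound stathmin reads thus held less Stmn2 and more Stmn3 in the library labelled shGpr151, by more than counting error. In Input the Stmn2 share was 46.0% (44.8 to 47.1) with shGpr151 and 47.3% (46.1 to 48.5) in control, and the Stmn3 share was 35.5% (34.4 to 36.6) with shGpr151 and 35.1% (34.0 to 36.3) in control, so neither differed beyond counting error there. These are shares of reads, and since the annotation at hand is of another build, they were not put on a scale per transcript length.

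**Figure D3:**
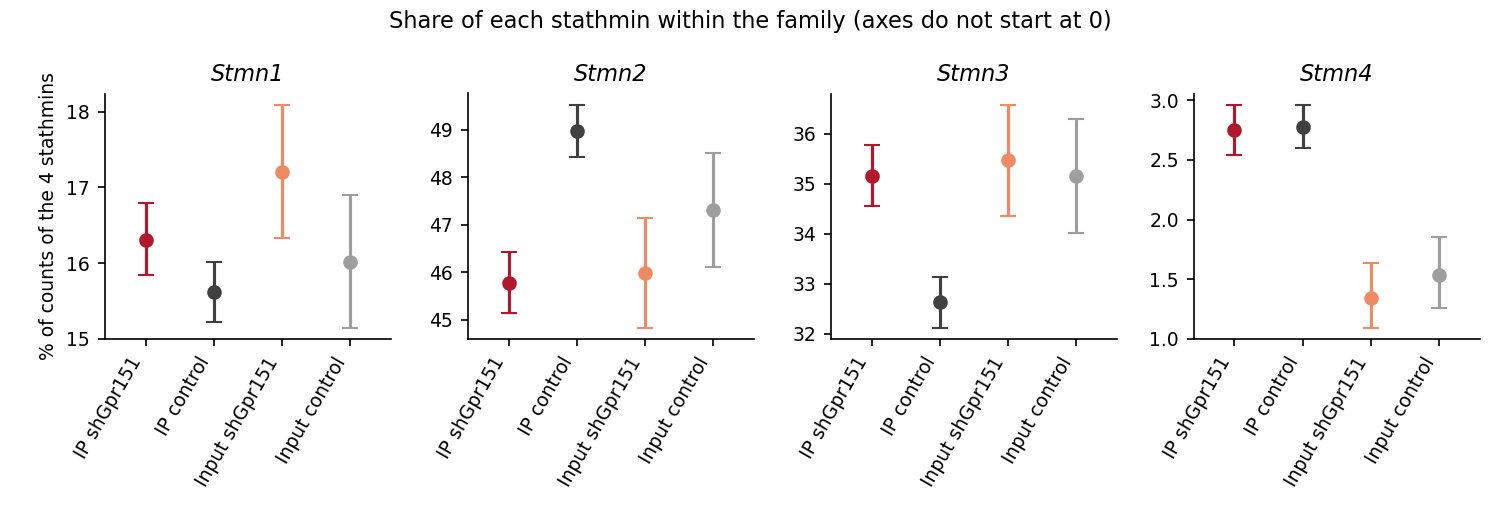
Percent of the counts of the 4 stathmins (y axes, which do not start at 0) that each stathmin took in IP shGpr151, IP control, Input shGpr151 and Input control, with exact binomial 95% intervals. The Stmn2 share was 45.8% in IP shGpr151 and 49.0% in IP control, and the Stmn4 share was near 2.75% in both IP libraries and near 1.5% or less in both Input libraries.

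Members were also set against each other, which needs no library scaling. Of the 21 pairs of members, 11 had a difference in their IP hairpin ratios whose Wald interval did not hold 0, and Marcks or Stmn2 was in all of these but the pair of Stmn3 and Gap43. Stmn2 minus Stmn3 was -0.21 (-0.26 to -0.15), Stmn2 minus Marcks -0.44 (-0.60 to -0.29) and Gap43 minus Marcks -0.35 (-0.52 to -0.19). Stmn2 minus Stmn4 was -0.083 (-0.23 to 0.067) and Stmn4 minus Gap43 -0.0088 (-0.17 to 0.15), so these pairs could not be separated at this depth.

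The Input libraries compare the whole lysate, neurons and other cells together. There fewer cells of a type and less RNA per cell cannot be told apart. In Input shGpr151, Gap43 and Basp1 were lower than in Input control and past the threshold, and Stmn1 and Stmn3 were slightly higher. This made 2 of 7 members lower and 0 higher, where 28.5% of all tested genes were lower and 21.4% higher past the same threshold, so the members' share was near the background. Their median log2 ratio was -0.079, beside -0.066 over all tested genes.

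Gap43 had 164, 153 and 154 counts in the Input shGpr151 columns, against 211, 200 and 192 in Input control. This was 76.6 CPM (69.8 to 83.8) with shGpr151 and 95.2 CPM (87.8 to 103) in control, with no overlap of the columns, and the log2 ratio was -0.34 (-0.51 to -0.16). Basp1 had 18, 24 and 19 counts in Input shGpr151 and 23, 21 and 37 in Input control, a ratio of -0.39 (-0.89 to 0.11). The last control column alone was high, the columns overlapped, and at 61 and 81 counts in all the interval held 0. Marcks had 60, 49 and 68 counts in Input shGpr151 and 70, 63 and 68 in Input control, a ratio of -0.16 (-0.46 to 0.14). The Gap43 and Basp1 values lie close to the threshold: leaving out 1 column at a time moved Gap43 between -0.37 and -0.28 and Basp1 between -0.55 and -0.089.

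Stmn1 had 403, 418 and 420 counts in Input shGpr151, against 360, 383 and 343 in Input control, a level of 202 CPM (191 to 213) with shGpr151 and 171 CPM (161 to 182) in control. The columns did not overlap and the log2 ratio was 0.21 (0.095 to 0.33). Stmn3 had 852, 829 and 878 counts in Input shGpr151 and 778, 780 and 826 in Input control, a ratio of 0.12 (0.042 to 0.20), also without overlap. Stmn2 had 1117, 1103 and 1098 counts in Input shGpr151 and 1076, 1081 and 1052 in Input control. Its ratio was 0.069 (-0.0010 to 0.14), an interval that held 0, though its columns did not overlap in CPM. Stmn4 had 36, 29 and 32 counts in Input shGpr151 and 32, 36 and 36 in Input control, a ratio of -0.079 (-0.49 to 0.33), too few reads to place it.

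Marker levels in the same Input libraries were as follows. The 15 neuron markers summed to 1238 CPM with shGpr151 and 1090 CPM in control. Among them Uchl1, a neuronal deubiquitinase, had 801 CPM in Input shGpr151 and 583 CPM in Input control. Without Uchl1 the sums were 437 CPM with shGpr151 and 507 CPM in control. The median log2 ratio of the 15 markers was -0.24. Stmn1, Stmn2 and Stmn3 lay above 13, 12 and 12 of the 15 markers, and Gap43 and Basp1 above 6 and 5. The 8 cycling cell markers, of interest because dividing cells make Stmn1, summed to 300.2 CPM in Input shGpr151 and 275 CPM in Input control. They were split, with 3 past the threshold higher and 3 lower and a median log2 ratio of 0.046. Over all tested genes 21.4% were higher and 28.5% lower. The sum of 6 of 8 endothelial and mural markers was 222 CPM with shGpr151 and 168 CPM in control. Other lists were lower: 8 of 10 Schwann cell markers summed to 341 CPM with shGpr151 and 390 CPM in control, and 5 of 7 fibroblast markers to 74.7 CPM with shGpr151 and 92.4 CPM in control. For satellite glia, 8 of 9 markers summed to 387 CPM with shGpr151 and 401 CPM in control. Of the 8, 5 were past the threshold lower and 1 higher, with a median log2 ratio of -0.46. The 1 higher was Fabp7, at 0.37 (0.25 to 0.48). The 9 of 11 macrophage markers summed to 466 CPM with shGpr151 and 442 CPM in control. Their part in the values of the members was not tested. Of the 21 pairs of members, 7 differed beyond the interval in Input, 4 of them with Stmn1, and Stmn1 minus Gap43 was 0.55 (0.34 to 0.76).

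The hairpin ratio in IP minus that in Input describes ribosome-bound RNA relative to the difference in the lysate. For Stmn2 it was -0.29 (-0.37 to -0.21), for Stmn1 -0.28 (-0.41 to -0.14) and for Stmn3 -0.14 (-0.23 to -0.049). It was 0.38 (0.056 to 0.71) for Marcks and 0.21 (0.018 to 0.39) for Gap43, and the intervals of Basp1 at 0.37 (-0.14 to 0.88) and Stmn4 at -0.059 (-0.48 to 0.37) held 0. Among the 1087 genes with at least 200 counts in every library the median was -0.23, with 40.5% lower past the threshold, and 43.7% of them lay below Stmn2 and 45.3% below Stmn1. Relative to the neuron marker median of 0.26, Gap43 was at -0.057. Past the threshold were 2 of 7 members higher, Marcks and Basp1, and 0 lower, where 34.1% of all tested genes were higher and 25.9% lower. Leaving out 1 column at a time gave 0 to 2 members higher and 0 to 2 lower, with Basp1 between 0.069 and 0.53. The median of the members was -0.059 and that of all tested genes 0.059.

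The comparison of IP with Input asks how strongly each transcript was recovered with the tagged neuronal ribosomes. All 7 members had more CPM in IP than in Input with either virus. TMM sizes lower every such log2 ratio by 2.19 with shGpr151 and 2.17 in control relative to library totals. The ratios below thus set a member against the typical gene among all those tested, whatever its counts. On this scale Stmn4, Gap43 and Basp1 were past 2-fold with either virus, and Stmn1, Stmn2, Stmn3 and Marcks were higher by less than that.

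With shGpr151, 3 of 7 members were past 2-fold higher and 0 lower, where 26.4% of all tested genes were higher and 26.6% lower. Among the 1136 genes with at least 200 counts in both libraries, 4.84% were higher and 68.1% lower, with a median log2 ratio of -1.72. Of these genes, 88.7% lay below Stmn1, 89.8% below Stmn2, 89.7% below Stmn3 and 96.6% below Gap43. That floor leaves out genes with few Input reads, among them Stmn4, Basp1 and Marcks. Basp1 had a log2 ratio of 1.65 (1.26 to 2.06), Stmn4 1.46 (1.15 to 1.78) and Gap43 1.304 (1.16 to 1.45). Marcks had 0.64 (0.40 to 0.89), Stmn2 0.42 (0.36 to 0.48), Stmn3 0.41 (0.35 to 0.48) and Stmn1 0.35 (0.26 to 0.44). The intervals of Stmn1, Stmn2 and Stmn3 overlap, so their order is not given by these data.

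In control the same 3 members were past 2-fold higher and 0 lower, where 23.7% of all tested genes were higher and 25.2% lower. Stmn4 had 1.52 (1.22 to 1.82), Basp1 1.28 (0.94 to 1.63) and Gap43 1.099 (0.97 to 1.23). Stmn2 had 0.71 (0.65 to 0.76), Stmn1 0.62 (0.53 to 0.72), Stmn3 0.55 (0.49 to 0.62) and Marcks 0.26 (0.031 to 0.49). Marcks was the lowest member in control but not with shGpr151. The Stmn3 ratio minus the Stmn4 ratio was -1.04 (-1.36 to -0.73) with shGpr151 and -0.96 (-1.26 to -0.66) in control, so within the family Stmn4 was recovered more with tagged ribosomes than the more counted Stmn3 with either virus. On library totals alone the log2 ratios of the members ran from 2.54 for Stmn1 to 3.84 for Basp1 with shGpr151, and from 2.43 for Marcks to 3.69 for Stmn4 in control.

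Members were recovered less than most neuron markers. The median log2 ratio of the 15 markers was 2.13 with shGpr151 and 1.82 in control, above that of every member with either virus. Stmn2 lay above 2 of the 15 markers with shGpr151 and 2 in control, Gap43 above 5 with shGpr151 and 4 in control, and Marcks above 2 with shGpr151 and 1 in control. For comparison, the ratio of Prph (peripherin) was 3.04 (2.87 to 3.21) with shGpr151 and 2.50 (2.36 to 2.65) in control. The macrophage marker Tyrobp had -4.74 (-5.08 to -4.42) with shGpr151 and -4.22 (-4.49 to -3.97) in control. The medians of the 7 members were 0.64 with shGpr151 and 0.71 in control, beside 0.098 with shGpr151 and 0.056 in control over all tested genes.

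**Figure D4:**
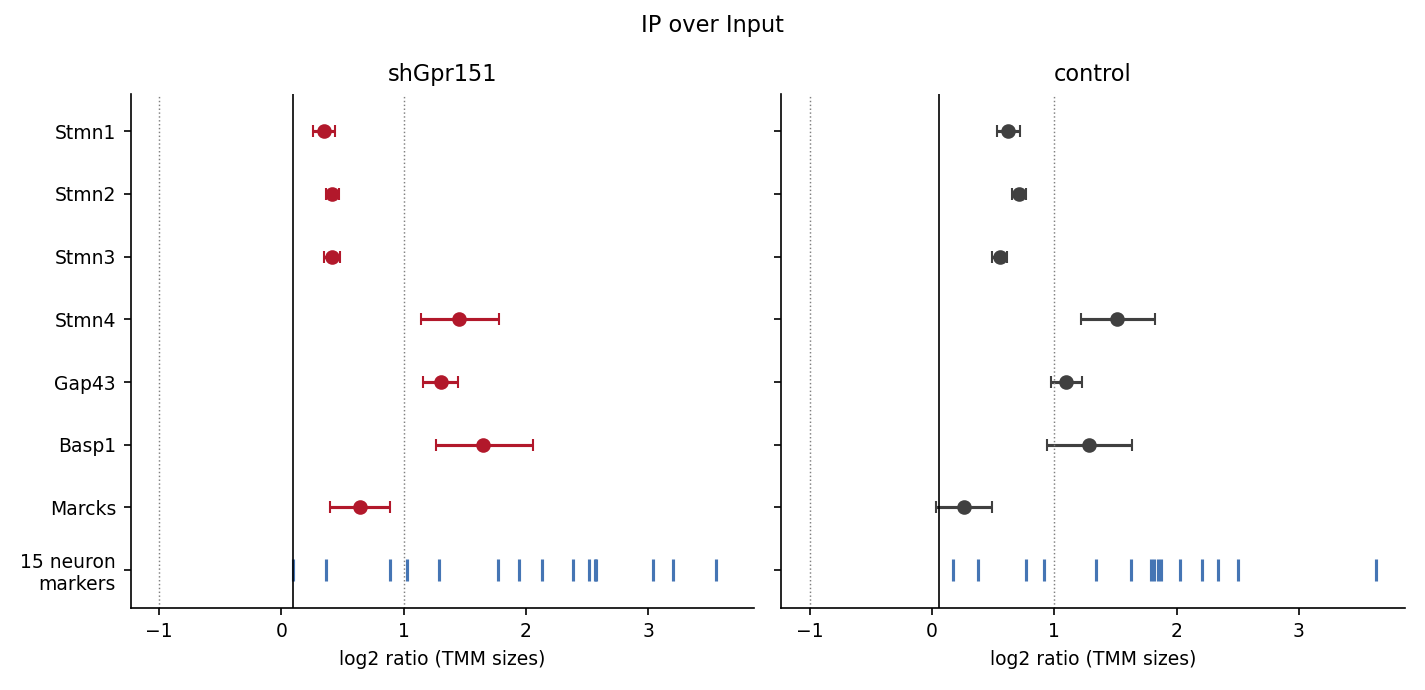
Log2 ratio of IP over Input (x axis, TMM library sizes) with shGpr151 (left) and in control (right) for the 7 members (points, with 95% counting intervals) and for 15 neuron markers (ticks). The solid line is the median of all tested genes and the dotted lines mark 2-fold. Stmn4, Gap43 and Basp1 lie right of the 2-fold line on both sides, and Stmn1, Stmn2, Stmn3 and Marcks lie between the median gene and that line.

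Genes that work with the members were examined as lists, whose counts past the threshold stand beside 14.4% of all tested genes higher and 9.88% lower in IP, and 21.4% higher and 28.5% lower in Input. Of 6 tested collapsin response mediators and doublecortins, microtubule-associated proteins of growing axons, 4 were past the threshold lower in Input with shGpr151 and 0 higher, with a median log2 ratio of -0.44 beside -0.066 over all tested genes. Dpysl2 (CRMP2) had 70 counts in Input shGpr151 and 93 in Input control, a ratio of -0.39 (-0.86 to 0.074), and Dclk1 had 28 with shGpr151 and 40 in control, a ratio of -0.49 (-1.24 to 0.24). Crmp1, named after its values were seen, had 14 counts with shGpr151 and 34 in control, and its ratio of -1.26 (-2.27 to -0.32) was the one of the 4 whose interval did not hold 0. In IP the list had 1 lower and 0 higher, with a median of 0.12. The 1 lower gene, Dclk2, also named after its values were seen, had 20 counts with shGpr151 and 33 in control, a ratio of -0.40 (-1.27 to 0.45). Dpysl2 had 2902 counts in IP shGpr151 and 3222 in IP control, a ratio of 0.18 (0.10 to 0.25). Dpysl3 had 0.072 (-0.043 to 0.19) in IP.

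Of 15 growth cone actin regulators tested, 0 were past the threshold in IP, and 2 were higher and 2 lower in Input, with medians of -0.041 in IP and -0.087 in Input. Cfl1 (cofilin), which severs actin filaments, had -0.17 (-0.22 to -0.11) in IP and 0.040 (-0.010 to 0.091) in Input. Pfn1 (profilin) had -0.031 (-0.13 to 0.064) in IP and 0.39 (0.29 to 0.49) in Input. Enah, an actin polymerase of filopodia, had 0.30 (0.13 to 0.46) in IP and -0.28 (-0.33 to -0.23) in Input, but only 605 counts in IP shGpr151 and 618 in IP control, against 5284 in Input shGpr151 and 6501 in Input control.

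Membrane and adhesion proteins of the growth cone had 4 of 13 past the threshold higher in IP with shGpr151 and 0 lower, with a median log2 ratio of 0.12. Rtn1, a reticulon of the endoplasmic reticulum, had 9565 counts in IP shGpr151 and 9457 in the larger IP control library, a ratio of 0.34 (0.30 to 0.38). Gnao1, the G protein subunit that Gap43 is known to act on, had 0.33 (0.24 to 0.42), and the adhesion molecule Chl1 0.069 (-0.037 to 0.17). The other 2 of the 4 higher genes, named after their values were seen, were Cntn2 at 0.38 (0.10 to 0.65) and Gprin1 at 0.56 (-0.45 to 1.58), the last on 20 counts with shGpr151 and 17 in control. In Input 1 of the 13 was higher and 4 were lower.

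Among calmodulins and protein kinase C genes, partners of Gap43 and Marcks, 2 of 6 were past the threshold higher in IP and 0 lower, and 0 were past it in Input. Calm2 had -0.0062 (-0.054 to 0.041) in IP and Calm3 0.027 (-0.10 to 0.16). The 2 higher genes, named after their values were seen, were both kinases. Prkce had 486 counts in IP shGpr151 and 385 in IP control, a ratio of 0.66 (0.47 to 0.86), and Prkcd 147 with shGpr151 and 128 in control, a ratio of 0.53 (0.17 to 0.88).

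The JNK pathway and other stathmin kinases had 2 higher and 2 lower of 10 in IP and 2 higher and 3 lower in Input. Map2k4 had 0.22 (0.10 to 0.34) in IP, Cdk5 -0.22 (-0.39 to -0.050) and the scaffold Mapk8ip3 -0.076 (-0.37 to 0.21). Of 7 tested palmitoylating and depalmitoylating enzymes, 1 was higher in IP and 0 lower, and 0 were higher in Input and 4 lower. Zdhhc2 had 0.11 (0.034 to 0.19) in IP and -0.47 (-1.07 to 0.11) in Input, Ppt1 -0.32 (-0.63 to -0.0018) in IP, and Zdhhc7 -1.64 (-3.25 to -0.26) in Input on 6 counts with shGpr151 and 19 in control. Of 8 RNA-binding proteins known for growth cone transcripts, 0 were past the threshold in IP, and 1 was higher and 2 lower in Input. Elavl3 had -0.0025 (-0.15 to 0.14) in IP, Fxr1 0.0046 (-0.15 to 0.16) and Elavl1 -0.17 (-0.48 to 0.14).

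**Figure D5:**
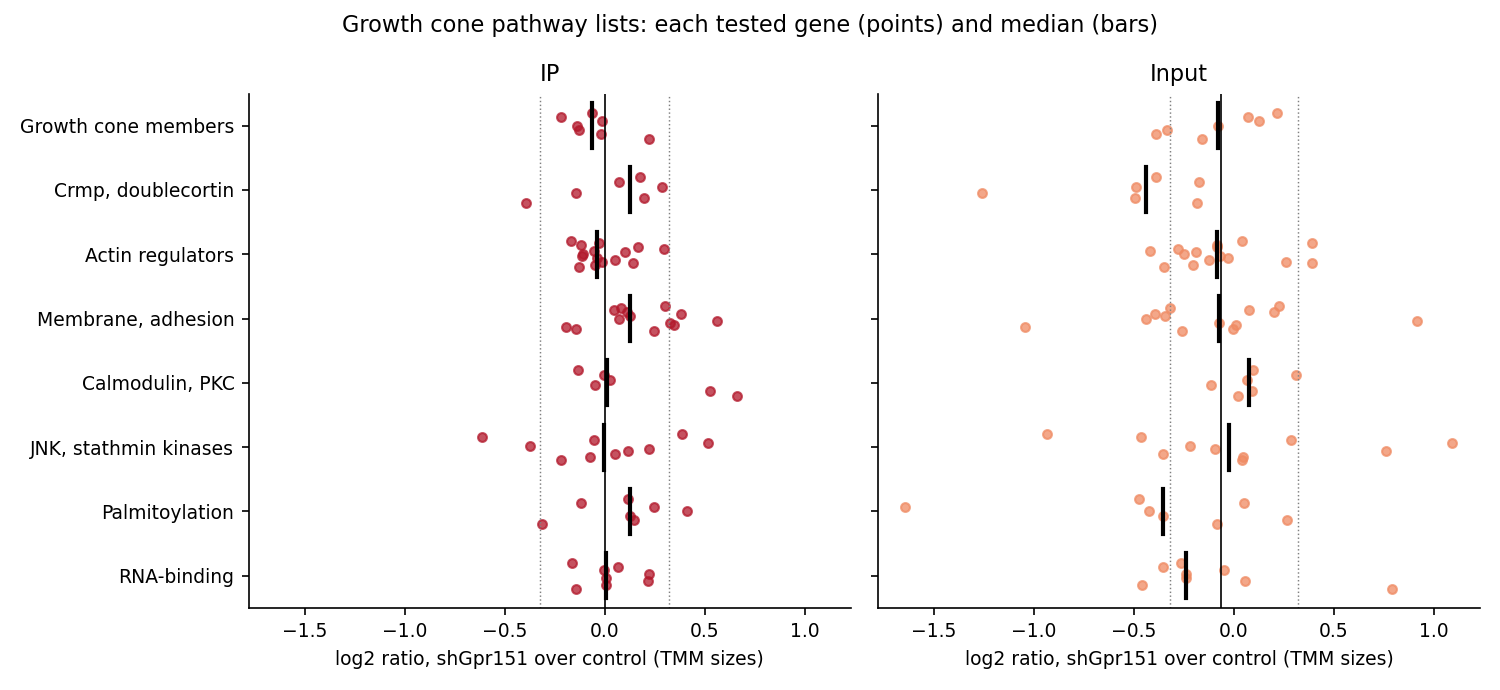
Log2 ratio of shGpr151 over control (x axes, TMM library sizes) in IP (left) and Input (right) for every tested gene of the members and of 7 related lists (points), with each list's median (bars), the median of all tested genes (solid line) and a log2 ratio of 0.32 in either direction (dotted lines). The ratios spread less in IP than in Input, and the bar of the collapsin response mediators and doublecortins lies at -0.44 in Input and 0.12 in IP.

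Genes closest to each member were found by Euclidean distance over 3 log2 ratios, the hairpin in IP, the hairpin in Input and IP over Input in control, among 1059 genes with at least 200 counts in every group, leaving out predicted genes, pseudogenes and IDs with no symbol. The measure rests on 4 libraries and describes them alone. For Stmn2 the closest were Tubb2a, a beta-tubulin, at a distance of 0.089, and Serpinb6a at 0.13. Tubb2a had ratios of -0.18 in IP, 0.11 in Input and 0.65 for IP over Input. For Stmn3 they were Nap1l1 at 0.039 and Ociad1 at 0.10, and for Stmn1 Itm2b at 0.077 and Nap1l1 at 0.090. For Gap43 they were S100b at 0.11 and Serbp1 at 0.20, where S100b, a calcium-binding protein known mainly from glia, had -0.24 in IP, -0.35 in Input and 1.12 for IP over Input. For Stmn4 the closest were Hsp90ab1 at 0.082 and Atp5a1 at 0.13, for Basp1 Nars at 0.17 and Serbp1 at 0.20, and for Marcks the neuropeptide precursor Vgf at 0.12 and Cavin3 at 0.16. Stmn4, Basp1 and Marcks themselves had fewer than 200 counts in Input shGpr151. Their Input hairpin intervals were wider than these distances, at -0.49 to 0.33 for Stmn4, -0.89 to 0.11 for Basp1 and -0.46 to 0.14 for Marcks. Their closest genes are therefore not settled at this depth.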

How the data were processed

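Nanopore cDNA libraries of IP and Input RNA were counted per gene by the authors. Minimap2 and Salmon are listed as tools, and GRCm39 (mm39) as build, in the submitters' processing notes without version. The deposited counts are whole numbers, not normalized, in 12 columns. No source used here says how reads of paralogs or pseudogenes were divided or whether strand was used, and the members' values are uncertain to that extent. Symbols matched 9061 of 9073 IDs and 12 had none.

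The members and lists were chosen with earlier results of these data known. TMM factors came from edgeR 4.0.16 (R 4.3.3) after filterByExpr at a minimum count of 10. Columns of a group were summed because they agreed to counting noise. Log2 ratios of summed counts have exact conditional binomial 95% intervals, CPM exact Poisson intervals, shares exact binomial (Clopper-Pearson) intervals, and differences of ratios Wald intervals. The ratio code was tested on simulated data. The labels do not say whether columns of a group came from separate animals or cultures. No coordinates are given. The text names all members, Gpr151, the 3 most counted genes of a list of related genes or cell markers where that list is described, and the 2 closest genes per member; 1 gene that this rule names is not reported here. Crmp1, Dclk2, Prkce, Prkcd, Cntn2 and Gprin1 were named after their values were seen. Alternatives were RLE size factors, total counts, other filters, other folds, each column left out, and, chosen after seeing the data, scaling to the neuron markers and leaving out Pabpc1. Gene-level tests were planned only for columns that counted as replicates and were not run.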

Additional observations from a re-analysis of the deposited data

Results flagged for a closer look

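Stmn1 had hairpin ratios on opposite sides of 0 in IP and Input, each with a counting interval that did not hold 0, and the ratio in IP minus that in Input was -0.275. The IP ratio was -0.062 (-0.12 to -0.00099) and the Input ratio 0.21 (0.095 to 0.33). Across the scalings the IP ratio ran from -0.10 on the neuron marker scale to -0.019 on total counts. TMM sizes shift IP hairpin ratios by -0.043 relative to library totals, so on total counts the Stmn1 interval in IP holds 0. Among the 1087 genes with at least 200 counts in every library, the median of IP minus Input was -0.23. Of these genes, 45.3% lay below Stmn1. With 1 sample a group the difference was not tested.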

How the results depend on the processing

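With 1 sample a group, no value here has a replicate check, and counts limit Stmn4, Basp1 and Marcks in Input most. No paired analysis was possible because each group counted as 1 sample and no result came from a test. In IP no member was past the hairpin threshold under any other scaling or filter or without any column; at 1.1-fold 1 was higher and 2 were lower. In Input, RLE size factors and total counts each left 1 member lower, since Gap43 moved to -0.31 in both, and leaving out 1 column gave 1 to 2; scaling to the neuron markers gave 2 higher and 0 lower, 1.1-fold gave 1 higher and 3 lower, and 1.5-fold 0 lower. For IP minus Input, leaving out 1 column gave 0 to 2 higher and 0 to 2 lower, RLE 1 lower, the neuron scaling 0 higher and 3 lower, 1.1-fold 3 higher and 3 lower, and 1.5-fold 0 higher. For IP over Input, total counts put 7 members past 2-fold with either virus, 4-fold left 0 with either virus, and 1.5-fold gave 5 higher in control. Scaled to the neuron markers, 0 were past 2-fold higher and 4 lower with either virus. There Stmn4 turned to -0.68 with shGpr151 and -0.30 in control, Gap43 to -0.83 with shGpr151 and -0.72 in control, and Basp1 to -0.48 with shGpr151 and -0.54 in control, by the construction of that scale. Stmn2 in IP ran from -0.26 on the neuron scale to -0.18 on total counts. Leaving out Pabpc1, or genes over 16-fold lower in IP, changed no count.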
